A study of Mus musculus with 18 samples.

Results

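Pyruvate dehydrogenase and its regulators were followed through 10 genes chosen by name: Pdha1 and Pdhb (catalytic subunits of the complex), Pdk1, Pdk2, Pdk3 and Pdk4 (its kinases), Pdp1 and Pdp2 (its phosphatases), and Mpc1 and Mpc2 (the carrier that brings pyruvate into mitochondria). All 10 were among the 55450 genes of the count table, and all 10 passed the filter on low counts that left 16270 genes. RNA came from the left ventricle of FVB/N mice of 2 genotypes, wild type (WT) and transgenic littermates whose hearts overexpressed Gαq, a signalling protein that couples cell surface receptors to phospholipase C (gene Gnaq). Within each genotype the mice ate either plain chow (CD, control diet) or chow containing ertugliflozin at 0.5 mg/g (ERTU), a drug that blocks glucose reabsorption in the kidney through SGLT2. Feeding lasted 16 weeks from the age of 4 weeks, so the animals were 20 weeks old at the end. The libraries, 1 per heart, numbered 4 in WT CD and 5 in WT ERTU, with 5 from Gαq mice that ate CD and 4 from those that ate ERTU. The transgene is restricted to the heart, and the promoter that drives it was not given in the sources used here.

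The pyruvate dehydrogenase complex turns pyruvate into acetyl-CoA inside mitochondria and so commits carbohydrate carbon to oxidation. Its kinases switch the complex off by phosphorylating the alpha subunit, and its phosphatases switch it on again. In the heart, Pdk4 is known to be induced in fasting and diabetes together with genes of fatty acid oxidation, Pdk2 is widely expressed, Pdp2 is the phosphatase isoform known to fall with starvation, and Pdp1 is the calcium-stimulated one. Pyruvate enters through a carrier built from Mpc1 and Mpc2. These are roles of the proteins, whereas mRNA was measured here.

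Total counts ran from 15383566 to 20908363 per library, and log2 CPM (read counts scaled to a common library size) of libraries within a group correlated at 0.971 to 0.988 (Pearson's r across genes). The transgene check was as labelled: Gnaq stood between 45.5 and 229.7 CPM in the 9 WT libraries and between 1641 and 11670 CPM in the 9 Gαq libraries. Heart muscle markers were present in every library, summing over 10 genes to between 67390 and 103500 CPM. In the genotype comparison 4 of these 10 were called lower (Ryr2, Tnni3, Myh6, Myl3) and Mybpc3 was called higher. Libraries are named by their group and the number in the table's header. CPM values were scaled by the trimmed mean of M-values (TMM), and a gene was called when its adjusted p was under 0.05 in edgeR's quasi-likelihood test over all 16270 genes.

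**Figure D1:**
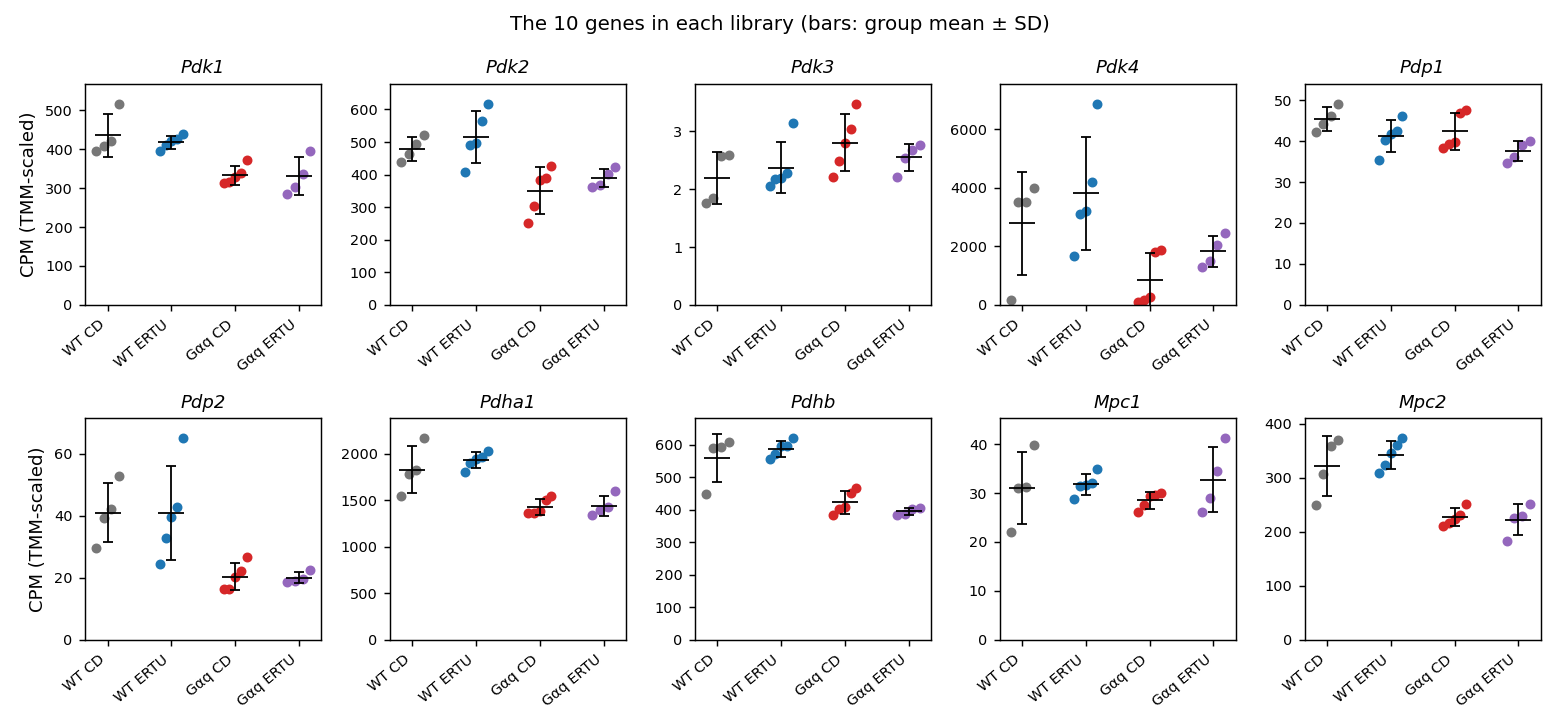
Level of each of the 10 genes in every library, in TMM-scaled CPM on axes that start at 0, by group; each point is 1 library and the bars give the group mean ± SD. Pdp2, Pdhb and Mpc2 lie lower in the Gαq groups on either diet, and Pdk4 varies most within groups, from 104.9 to 1873 CPM in Gαq CD.

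In Gαq hearts, 6 of the 10 genes were lower and 0 were higher when diet was in the model (Gαq against WT, n = 9 against 9). The called genes were both catalytic subunits, the kinases Pdk1 and Pdk2, the phosphatase Pdp2 and the carrier gene Mpc2. Pdp2 had the largest called difference, -1.02 on the log2 scale, and those of the other 5 ran from -0.56 to -0.36. Over all genes tested 19.6% were called and 9.92% were called lower, and 6 of the 10 genes were called lower. The median log2 difference of the 10 genes was -0.41, against 0.00 over all genes. On CD alone 6 genes were called, all lower, against 8.10% of all genes called and 4.10% called lower. That count was 3 without WT CD 2, 3 with no filter on low counts (Pdp2, Pdhb and Mpc2) and 2 in a fit of only the groups compared (Pdp2 and Mpc2). On ERTU alone 5 genes were called, all lower, against 8.17% and 4.24%. The libraries of the 2 genotypes did not overlap for 3 genes on CD and 4 genes on ERTU, against 9.29% and 10.9% of all genes. These genotype comparisons rest on the same libraries and are not independent of each other. In bulk tissue, fewer heart muscle cells and less RNA per cell cannot be told apart.

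Fibroblast markers moved with genotype in the other direction: 6 of 7 were called higher in Gαq (Col1a1, Col1a2, Col3a1, Dcn, Lum, Pdgfra), and 0 of 7 were at 0 in all libraries. Their summed level ran from 1571 to 3055 CPM in WT CD, 1461 to 2729 in WT ERTU, 2942 to 4248 in Gαq CD and 2809 to 3459 in Gαq ERTU. The summed heart muscle markers ran from 75320 to 103500 CPM in WT CD, 73900 to 102700 in WT ERTU, 67390 to 90220 in Gαq CD and 72320 to 93570 in Gαq ERTU, and these ranges overlapped. Among the remaining marker lists, the endothelial genes Cdh5 and Tie1 were called lower, and the lymphocyte gene Cd79b and the skeletal muscle genes Pvalb and Tnnt3 were called higher. Of the macrophage, fat, atrium and red blood cell lists 0 genes were called by genotype. The part of cell composition in the results below was not tested.

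**Figure D2:**
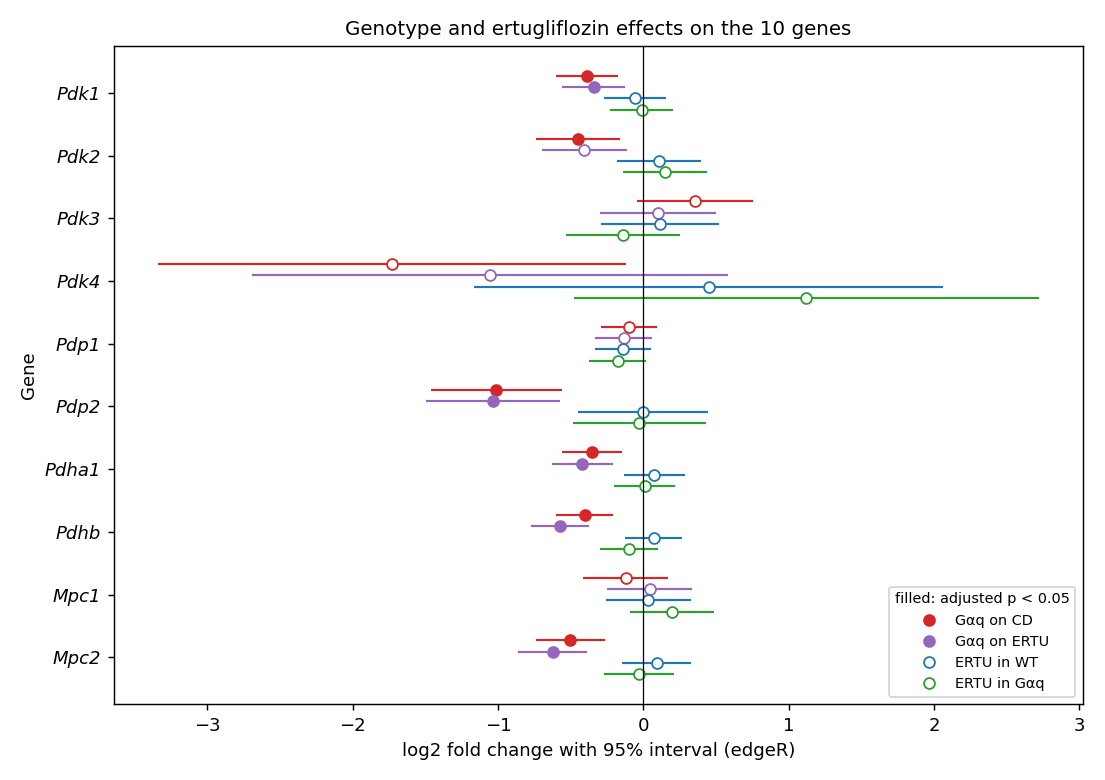
Log2 fold change of each gene with its 95% interval in 4 comparisons, from edgeR; filled symbols have an adjusted p under 0.05. Genotype effects lie below 0 for Pdk1, Pdk2, Pdp2, Pdha1, Pdhb and Mpc2 on either diet, the ertugliflozin intervals all include 0, and those of Pdk4 are the widest.

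Promoters of 9 of the 10 genes were matched in RefSeq (build GRCm38.p6), Pdp1 being the exception. Those of Pdk4, Pdk2, Pdp2 and Pdhb are printed, the 250 bases before the start of transcription, 5′ to 3′ on the gene's strand, because they show the motifs found in called genes (Pdk2, Pdp2, Pdhb) and in the most variable one (Pdk4). Of the other genes called lower, Mpc2 has a CCAAT box at -215, and neither motif is in the windows of Pdk1 and Pdha1. Pdk3, Pdk4 and Mpc1, which were not called, have a CCAAT box as well, so this motif does not set the called genes apart. Capitals mark the E-box CACGTG and the CCAAT box (CCAAT or, on the other strand, ATTGG), neither of which overlaps the other here.
Pdk4 (chr6:5496279-5496528, minus strand): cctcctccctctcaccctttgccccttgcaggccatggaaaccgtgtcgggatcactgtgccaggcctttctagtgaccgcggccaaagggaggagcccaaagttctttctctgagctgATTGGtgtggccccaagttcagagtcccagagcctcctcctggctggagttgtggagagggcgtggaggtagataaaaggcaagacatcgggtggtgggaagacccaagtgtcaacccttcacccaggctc
Pdk2 (chr11:95041372-95041621, minus strand): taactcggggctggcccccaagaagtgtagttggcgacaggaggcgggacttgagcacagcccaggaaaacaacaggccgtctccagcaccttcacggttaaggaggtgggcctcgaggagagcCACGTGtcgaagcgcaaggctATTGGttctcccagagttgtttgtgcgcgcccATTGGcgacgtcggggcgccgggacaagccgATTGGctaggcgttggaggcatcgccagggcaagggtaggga
Pdp2 (chr8:104591222-104591471, plus strand): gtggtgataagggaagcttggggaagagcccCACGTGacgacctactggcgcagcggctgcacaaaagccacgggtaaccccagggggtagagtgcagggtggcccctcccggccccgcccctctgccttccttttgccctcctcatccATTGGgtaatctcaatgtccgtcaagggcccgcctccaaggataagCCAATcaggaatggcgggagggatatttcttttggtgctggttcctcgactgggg
Pdhb (chr14:8172993-8173242, minus strand): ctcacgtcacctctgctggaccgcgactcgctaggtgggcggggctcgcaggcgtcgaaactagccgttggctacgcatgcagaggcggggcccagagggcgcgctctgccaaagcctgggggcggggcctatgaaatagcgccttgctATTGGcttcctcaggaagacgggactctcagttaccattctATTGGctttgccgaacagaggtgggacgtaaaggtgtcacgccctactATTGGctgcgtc
The E-box was found at -126 in Pdk2 and at -219 in Pdp2, counted from the start, and in 6.02% of 32851 such windows over the genome. Pdk1, Pdk2 and Mpc1 have 2 windows each, which makes 12 windows for the 9 genes. The CCAAT box was found in 7 of the 12 windows, each of another gene, and in 33.8% of all windows. On both strands, the letters AGGTCA repeated after 1 free base (PPAR direct repeat, 0.0335% of windows), TNAAGGTCA (ERR element, 1.14%), GTAAACA (FoxO element, 3.17%) and GNACA followed after 3 free bases by TGTNC (glucocorticoid element, 0.387%) were in none of the 9 genes' windows, which says nothing of sites farther away.

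Pdha1 (chromosome X, 160122209 to 160138413) encodes the alpha subunit, which carries the serines that the kinases phosphorylate. It stood at 1786, 2166, 1822 and 1550 CPM in WT CD and at 1550, 1381, 1501, 1367 and 1366 CPM in Gαq CD. On ERTU it stood at 1902, 1970, 1804, 1943 and 2036 CPM in WT and at 1401, 1598, 1429 and 1346 CPM in Gαq. Every Gαq library was under every WT library on ERTU, while on CD the lowest WT and the highest Gαq library met. Pdha1 fell by 23.5% in Gαq (log2 difference -0.39 ± 0.07 SE, adjusted p = 0.000338). On CD the difference was -0.35 (adjusted p = 0.0319). This call on CD rested on single libraries, since the adjusted p was 0.0713 without WT CD 1, 0.143 without WT CD 2, 0.0587 without WT CD 4, 0.0735 without Gαq CD 7, 0.0728 without Gαq CD 9 and 0.0626 without Gαq CD 10. On ERTU it was -0.42 (adjusted p = 0.0115). The testis form Pdha2 had 0 counts in every library, and exons of Map3k15 on the opposite strand overlap Pdha1 over 603 bases but held only 851 counts over all libraries against 538794 for Pdha1.

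Pdhb (chromosome 14, 8165996 to 8173025) encodes the beta subunit of the same enzyme. In WT CD it stood at 591.9, 607.2, 590.1 and 447.3 CPM, and in Gαq CD at 450.4, 401.9, 468.4, 409.6 and 383.9 CPM. In WT ERTU it stood at 597.4, 594.9, 554.9, 570.9 and 619.5 CPM, and in Gαq ERTU at 405.3, 402.2, 385.4 and 386.3 CPM. The groups were far apart on ERTU, and on CD 1 WT library (WT CD 5) fell inside the Gαq range. Pdhb fell by 28.7% in Gαq (log2 difference -0.49 ± 0.07 SE, adjusted p = 2.23e-05). On CD the log2 difference was -0.40 (adjusted p = 0.0099), and on ERTU it was -0.57 (adjusted p = 0.000698). The 2 effects were not shown to differ (interaction -0.17, 95% interval -0.45 to 0.11). The ratio of Pdha1 to Pdhb CPM ran from 3.02 to 3.97 over all 18 libraries. On ERTU it stood between 3.18 and 3.40 in WT and between 3.46 and 3.97 in Gαq, without overlap, while on CD the ranges overlapped, and the difference between the falls of the subunits was not tested.

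Pdhb has a processed pseudogene, Gm6123 on chromosome 1, that matches its transcript at 97.0% over 1079 bases and held 30572 counts against 159564 for Pdhb. Gm6123 moved with its parent (log2 difference by genotype -0.49 ± 0.07 SE, adjusted p = 4.25e-05), and Pdhb held between 82.6% and 84.9% of their joint counts in every library. With both counts added the genotype difference of Pdhb was -0.49 (adjusted p = 2.54e-05). How the authors' counting divided reads between the 2 loci cannot be told from the counts.

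Among the kinases, group means per kb of exon put Pdk4 first and Pdk3 last. In single libraries Pdk2 stood above Pdk4 in WT CD 4 (58.4% against 19.9% of kinase mRNA per length), Gαq CD 7 (52.3% against 23.4%), Gαq CD 8 (40.5% against 38.2%) and Gαq CD 9 (62.4% against 15.4%), which is 3 of the 5 Gαq CD hearts. In WT CD the mean level per length was 794 ± 502 CPM per kb for Pdk4, 151.5 ± 11.4 for Pdk2, 56.0 ± 7.10 for Pdk1 and 0.858 ± 0.175 for Pdk3 (SD, n = 4). Beside them Pdha1 stood at 490 ± 68.0, Pdhb at 145 ± 19.4, Mpc2 at 43.8 ± 7.48, Mpc1 at 14.9 ± 3.52, Pdp1 at 10.1 ± 0.652 and Pdp2 at 7.20 ± 1.67 CPM per kb. In that order the neighbours Pdk4 and Pdha1, Pdk2 and Pdhb, and Pdk1 and Mpc2 lay within their SDs. In Gαq CD the mean of Pdk4, 239.7 ± 261.6 CPM per kb (SD, n = 5), came after that of Pdha1, 383.7 ± 23.2. Dividing by the longest transcript in place of all exons exchanged Pdk2 and Pdhb in WT CD, WT ERTU and Gαq CD and Pdk1 and Mpc2 in WT ERTU.

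**Figure D3:**
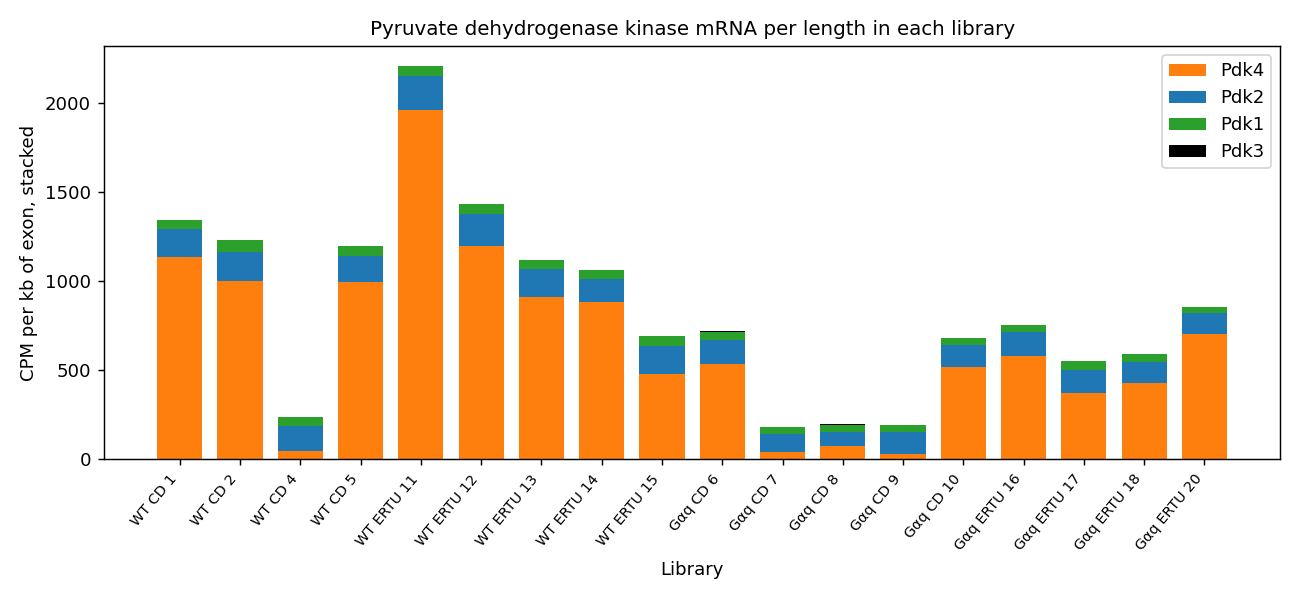
Kinase mRNA per length in each library, as stacked CPM per kb of exon on an axis that starts at 0, ordered by group. Pdk4 (bottom of each bar) makes up 15.3% to 88.6% of the stack, and WT CD 4, Gαq CD 7, Gαq CD 8 and Gαq CD 9 have the shortest bars.

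Pdk4 (chromosome 6, 5483351 to 5496309) was the most variable of the 10 genes. In WT CD it stood at 3976, 3504, 165.5 and 3500 CPM, the third of these being WT CD 4. In Gαq CD it stood at 1873 (Gαq CD 6), 150.4 (Gαq CD 7), 261.3 (Gαq CD 8), 104.9 (Gαq CD 9) and 1818 CPM (Gαq CD 10). In WT ERTU it stood at 6869, 4200, 3194, 3093 and 1677 CPM, and in Gαq ERTU at 2041, 1308, 1508 and 2471 CPM. The CD groups thus each held libraries far below the rest, while the lowest ERTU library was at 1308 CPM, and the groups overlapped in every comparison. As a share of kinase mRNA per length, Pdk4 ran from 19.9% to 84.3% in WT CD, 69.0% to 88.6% in WT ERTU, 15.3% to 75.9% in Gαq CD and 67.6% to 82.2% in Gαq ERTU.

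The means of Pdk4 differed by genotype without passing the test. Its log2 difference with diet in the model was -1.39 ± 0.54 SE (95% interval -2.52 to -0.27, adjusted p = 0.0762), -1.73 on CD (adjusted p = 0.199) and -1.06 on ERTU (adjusted p = 0.473). Leaving out WT CD 4 gave -1.55 with an adjusted p of 0.0275, and leaving out Gαq CD 6 gave -1.62 with an adjusted p of 0.0493. Between these fits and those without any other library the adjusted p ran from 0.0275 to 0.133. With no filter on low counts it was 0.044. Median-of-ratios scaling gave 0.0764, a mean CPM of at least 1 gave 0.0768 and 1 mean per group gave 0.0865. Robust edgeR gave 0.135, the Wald test of DESeq2 0.077 and voom in limma 0.142. On single diets, edgeR fits of only the 2 groups compared gave -1.05 ± 0.33 SE on ERTU (unadjusted p = 0.00759, adjusted p = 0.0756). On CD such a fit gave -1.72 ± 0.91 SE (adjusted p = 0.319). Ertugliflozin gave a log2 difference of 0.79 ± 0.53 SE (95% interval -0.32 to 1.90, adjusted p = 0.703) with genotype in the model, 0.45 in WT and 1.12 in Gαq (95% intervals -1.16 to 2.06 and -0.48 to 2.72, adjusted p = 1 and 0.689). All 3 intervals include 0 and reach well above 1. These estimates moved with the method and with single libraries. Voom, which weights libraries by quality, gave Pdk4 1.54 for diet (unadjusted p = 0.02, adjusted p = 0.434 in limma) and 2.21 in Gαq (unadjusted p = 0.0127, adjusted p = 0.23 in limma). The difference of mean log2 CPM in Gαq was 2.06. Leaving out WT CD 4 took the estimate in WT to 0.06, and leaving out WT ERTU 11 took it to 0.13. Over all fits that left out 1 library the estimate in Gαq ran from 0.84 (without Gαq CD 9) to 1.65 (without Gαq CD 6). An effect of ertugliflozin on Pdk4 passed the threshold in none of the fits run, and none of them shows that it is absent.

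Pdk2 (chromosome 11, 95026258 to 95041354), the broadly expressed kinase, stood at 495.2, 520.4, 438.5 and 462.4 CPM in WT CD and at 426.5, 303.8, 249.9, 384.1 and 388.5 CPM in Gαq CD. On ERTU it stood at 617.5, 564.2, 490.5, 409.4 and 497.5 CPM in WT and at 424.6, 401.2, 369.5 and 362.2 CPM in Gαq. The genotypes did not overlap on CD, and on ERTU 1 WT library (WT ERTU 14) reached into the Gαq range. Pdk2 fell by 25.7% in Gαq (log2 difference -0.43 ± 0.10 SE, adjusted p = 0.00268). On CD the difference was -0.45 with an adjusted p of 0.0493, just inside the threshold, and 14 of the 18 fits that left out 1 library lost the call (adjusted p from 0.0223 to 0.14), all but those without Gαq CD 6, Gαq CD 10, WT ERTU 11 or WT ERTU 14. On ERTU it was -0.41 with an adjusted p of 0.0808, which became 0.0388 without Gαq CD 8 and 0.032 without WT ERTU 14.

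Pdk1 (chromosome 2, 71873224 to 71903858), known as a target of the hypoxia factor HIF1, stood at 408.5, 517.1, 396.2 and 421.2 CPM in WT CD and at 371.4, 337.9, 312.8, 328.3 and 315.3 CPM in Gαq CD. On ERTU it stood at 427.3, 421.1, 394.4, 410.5 and 438.4 CPM in WT and at 303.1, 396.9, 335.4 and 286.1 CPM in Gαq. All Gαq CD libraries were under all WT CD libraries, and on ERTU 1 Gαq library (Gαq ERTU 17) reached the WT range. Pdk1 fell by 22.3% in Gαq (log2 difference -0.36 ± 0.07 SE, adjusted p = 0.000796). The mRNA of Hif1a was higher (0.55 ± 0.09 SE, adjusted p = 9.39e-05). HIF1 protein was not measured, and its part in the level of Pdk1 was not tested. The CD difference of -0.39 (adjusted p = 0.0221) was not called without WT CD 2 (adjusted p = 0.109) or Gαq CD 8 (0.0558). The ERTU difference of -0.34 (adjusted p = 0.0464) was not called in 12 of 18 fits that left out 1 library (adjusted p from 0.011 to 0.16), and held only without WT CD 2, WT CD 4, WT CD 5, Gαq CD 6, Gαq CD 8 or Gαq ERTU 17.

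Pdk3 (chromosome X, 93764607 to 93832201) was scarce. Its counts ran from 31 to 76 per library and its CPM from 1.77 to 3.48, and it was the only kinase whose mean was higher in Gαq (log2 difference 0.23 ± 0.13 SE, adjusted p = 0.257). At this depth the 95% interval reached from -0.05 to 0.51.

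The phosphatase genes parted by genotype. Pdp2 (chromosome 8, 104591451 to 104599026) stood at 52.8, 42.0, 39.4 and 29.6 CPM in WT CD and at 22.1, 16.4, 20.1, 26.6 and 16.4 CPM in Gαq CD. On ERTU it stood at 39.5, 42.7, 32.9, 24.4 and 64.9 CPM in WT and at 19.7, 18.6, 22.5 and 18.9 CPM in Gαq. Every Gαq library was under every WT library on the same diet. Pdp2 fell by 50.8% in Gαq (log2 difference -1.02 ± 0.15 SE, adjusted p = 4.48e-05). The log2 difference was -1.01 on CD (adjusted p = 0.00513) and -1.04 on ERTU (adjusted p = 0.005), and these calls held in all 18 fits that left out 1 library.

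Pdp1 (chromosome 4, 11958184 to 11966452) ran from 34.7 to 49.1 CPM over all libraries and overlapped between the genotypes on either diet. Its genotype difference was -0.12 ± 0.06 SE (95% interval -0.25 to 0.02, adjusted p = 0.221). For ertugliflozin with genotype in the model it had a log2 difference of -0.16 ± 0.06 SE, which was not called (adjusted p = 0.639). As a share of phosphatase mRNA per length, Pdp2 ran from 35.7% to 48.7% in WT CD and 35.3% to 52.7% in WT ERTU, against 21.4% to 31.4% in Gαq CD and 27.8% to 33.0% in Gαq ERTU. The 2 genotypes did not overlap in this share, which follows from the fall of Pdp2 and is given with no test. The ratio of Pdk2 to Pdp2 CPM had a mean of 12.1 ± 2.63 in WT CD (SD, n = 4), 13.6 ± 3.59 in WT ERTU (n = 5), 17.7 ± 4.41 in Gαq CD (n = 5) and 19.7 ± 2.44 in Gαq ERTU (n = 4), with overlap on either diet.

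Of the carrier genes, Mpc2 was called lower in Gαq and Mpc1 was not, and the difference between them was not tested. Mpc2 (chromosome 1, 165460637 to 165481214) stood at 370.5, 307.2, 358.0 and 250 CPM in WT CD and at 231.4, 223.9, 216.3, 210.6 and 252.1 CPM in Gαq CD. On ERTU it stood at 372.6, 346.2, 360.9, 324.2 and 309.1 CPM in WT and at 250.8, 183.5, 229.2 and 225.5 CPM in Gαq. The genotypes were apart on ERTU, and on CD only WT CD 5 and Gαq CD 10 crossed. Mpc2 fell by 32.3% in Gαq (log2 difference -0.56 ± 0.08 SE, adjusted p = 2.79e-05). The log2 difference was -0.50 on CD (adjusted p = 0.00773) and -0.62 on ERTU (adjusted p = 0.00159), and these calls held in all 18 fits that left out 1 library.

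Mpc1 (chromosome 17, 8282904 to 8297661) ran from 22.0 to 41.2 CPM, with a genotype difference of -0.04 ± 0.10 SE (95% interval -0.24 to 0.16, adjusted p = 0.825). This value is uncertain, because the processed pseudogene Mpc1-ps on chromosome 12 matches the coding part of Mpc1 over 330 bases with 1 difference and was credited with 85535 counts against 10090 for Mpc1. The first 150 bases of the match, from the GENCODE M21 transcripts of build GRCm38, are shown because the base in capitals is the only one within them that tells the loci apart, although the mate of a read pair can lie outside the match.
Mpc1: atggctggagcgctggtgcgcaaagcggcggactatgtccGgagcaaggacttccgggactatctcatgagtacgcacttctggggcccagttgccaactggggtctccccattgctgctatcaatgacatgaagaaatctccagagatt
Mpc1-ps: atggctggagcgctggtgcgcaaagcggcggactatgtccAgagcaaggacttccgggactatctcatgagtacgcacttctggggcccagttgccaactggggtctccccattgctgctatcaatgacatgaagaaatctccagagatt
The difference is G41A, counted from 1 at the first base of the start codon, with the base of Mpc1 first. The mice were FVB/N, and which base their loci carry was not examined here.

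Mpc1 held between 8.63% and 16.1% of the joint counts in any library. Mpc1-ps was called lower in Gαq (log2 difference -0.22 ± 0.07 SE, 95% interval -0.37 to -0.06, adjusted p = 0.0457). This interval overlaps that of Mpc1, and the difference between the loci was not tested. The sum of both stood at 300.3 ± 48.9 CPM in WT CD (SD, n = 4), 326.3 ± 26.9 in WT ERTU (n = 5), 264.1 ± 15.8 in Gαq CD (n = 5) and 281.9 ± 24.3 in Gαq ERTU (n = 4). With the counts added, a setting chosen after seeing the data, the genotype difference was -0.20 ± 0.07 SE (adjusted p = 0.0607). An antisense transcript, 4930506C21Rik, also overlaps 480 exonic bases of Mpc1.

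Ertugliflozin moved none of the 10 genes past the threshold. In edgeR 0 of 10 were called for diet with genotype in the model, 0 in WT, 0 in Gαq and 0 in the interaction, against 0%, 0%, 0.00615% and 0% of all genes in the comparisons of diet, ERTU in WT, ERTU in Gαq and interaction. At an unadjusted p under 0.05 there was 1 gene for diet (Pdp1) and 0 in each of the other 3 comparisons. Voom gave 2 genes at an unadjusted p under 0.05 for diet (Pdk4 and Pdp1) and 2 in Gαq (Pdk4 and Pdp1). Over all 16270 genes voom gave 1646 for diet and 2532 in Gαq at that level. DESeq2 and voom also called 0 of the 10 in these 4 comparisons. In edgeR 1252 of all genes had an unadjusted p under 0.05 for diet, 365 in WT, 1240 in Gαq and 313 in the interaction. In the same comparisons DESeq2 called 2, 0, 4 and 0 genes. For the 6 genes that were lower in Gαq, the ERTU in Gαq estimates ran from -0.10 (Pdhb, 95% interval -0.30 to 0.10) to 0.15 (Pdk2, -0.14 to 0.44). The groups overlapped for all 10 genes within either genotype. Gnaq itself had a mean of 7473 ± 3818 CPM in Gαq CD (SD, n = 5) and 3216 ± 1371 CPM in Gαq ERTU (SD, n = 4), with overlap. Its log2 difference for ERTU in Gαq was -1.22 (95% interval -2.30 to -0.13, unadjusted p = 0.0294, adjusted p = 0.653 in edgeR). The part of Gnaq in these comparisons was not tested.

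The other parts of the complex fell as well. Of 5 listed genes 4 were tested, and all 4 were lower in Gαq with diet in the model: Dlat, the acetyltransferase core (log2 difference -0.39), Pdhx, which anchors Dld to the core (-0.59), Dld, the shared dihydrolipoyl dehydrogenase (-0.66, adjusted p = 9.4e-07), and Pdpr, the phosphatase regulatory subunit (-0.48). Their median difference was -0.53 against 0.00 over all genes. Pdhx and Dld were also called on each diet alone. Among the 8 genes for lipoate and thiamine, the cofactors of the complex, 4 were called lower (Lias, Lipt1, Lipt2 and Mcat), and 0 higher. Over all genes 9.92% were called lower.

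The sister dehydrogenases of 2-oxoglutarate, branched-chain keto acids and 2-oxoadipate, with the kinase and phosphatase of the branched-chain enzyme, were lower in 8 of 8 genes (median -0.51). Ppm1k, the branched-chain phosphatase, had the largest fall of these at -0.97 ± 0.09 SE (adjusted p = 1.22e-07), and its opposing kinase Bckdk had the smallest at -0.24 ± 0.06 SE (adjusted p = 0.00802).

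Of the genes that supply pyruvate or exchange it with lactate, 3 of 7 were called lower and 0 higher. Gpt, alanine aminotransferase, which makes pyruvate from alanine, had a log2 difference of -1.55 ± 0.11 SE (adjusted p = 3.36e-09), Gpt2 one of -0.50 and Pkm, pyruvate kinase, one of -0.24. The lactate dehydrogenase genes Ldha and Ldhb had differences of 0.09 and -0.20 that did not pass the test (adjusted p = 0.505 and 0.0634). Of the genes for other uses of pyruvate or acetyl-CoA entry, 4 of 5 tested were lower (Cs, Pcx, Me1 and Me3) and the malic enzyme Me2 was higher (0.36 ± 0.09 SE, adjusted p = 0.00543). Of 12 factors known to act on Pdk genes, 5 were lower (Ppard, Rxra, Esrra, Ppargc1a and Foxo1) and Hif1a was higher, while Ppara had a difference of -0.41 that was not called (adjusted p = 0.0687). On CD alone and on ERTU alone 0 of the 12 were called lower, and Hif1a was called higher on each. Over all genes 19.6% were called by genotype with diet in the model, and 9.92% were called lower. In these lists 0 genes were called for diet in edgeR.

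**Figure D4:**
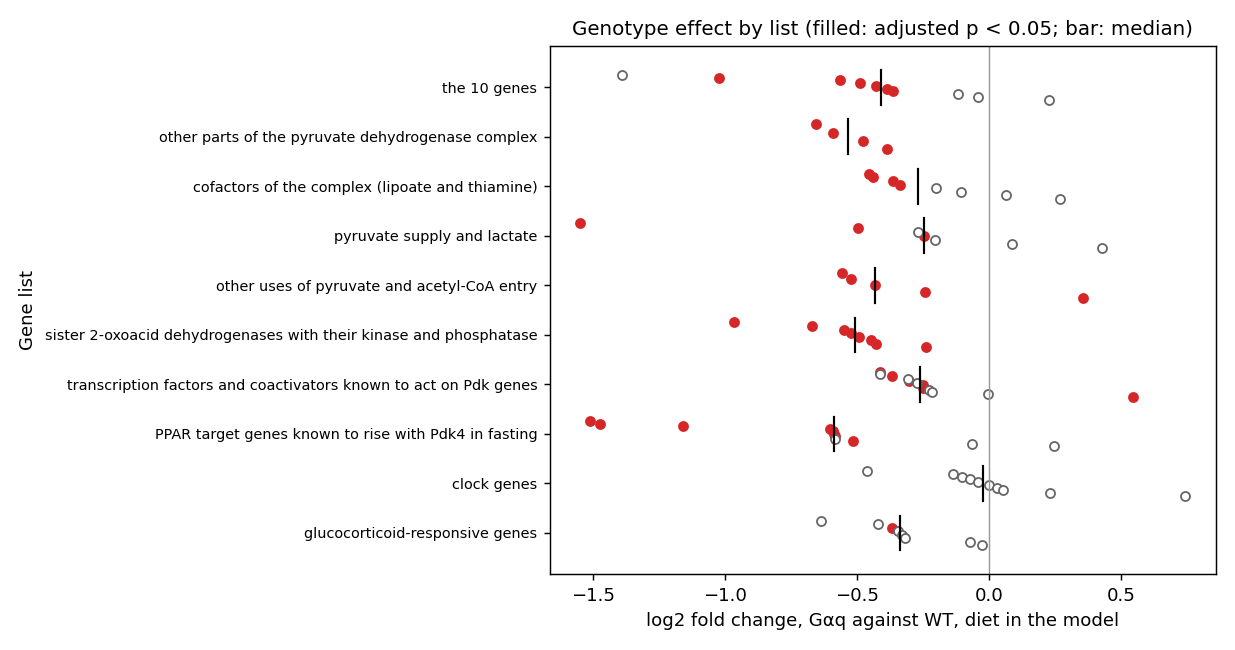
Log2 fold change of Gαq against WT with diet in the model for each tested gene of the 10 genes and 9 related lists; filled points have an adjusted p under 0.05 and the black bar is the list's median. The other parts of the complex and the sister dehydrogenases lie wholly below 0, while the clock genes lie on both sides with 0 called.

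Across libraries, Pdk4 varied along with genes known as fasting-induced PPAR targets. With group means removed, the Pearson correlation of its log2 CPM with 11 such genes ran from 0.26 (Acadm) to 0.97 (Ucp3), with a median of 0.90 over 18 libraries, against a median of 0.01 over all genes. These points share their libraries and normalization, and the values are given as a description. The list was chosen with earlier results of these data known, so it is no independent check. Ucp3, a mitochondrial carrier protein, stood at 23.1 CPM in WT CD 4 and at 8.23, 14.8 and 10.4 CPM in Gαq CD 7, 8 and 9. It was 79.7 and 104.5 CPM in the other Gαq CD libraries and at least 187 CPM in the remaining WT CD libraries. Angptl4, an inhibitor of lipoprotein lipase, stood at 1.91 CPM in WT CD 4, 1.69 in Gαq CD 7, 14.6 in Gαq CD 8 and 4.41 in Gαq CD 9, and between 25.5 and 105.9 CPM in all other libraries. The libraries with the least Pdk4 thus also had the least Ucp3 and Angptl4.

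**Figure D5:**
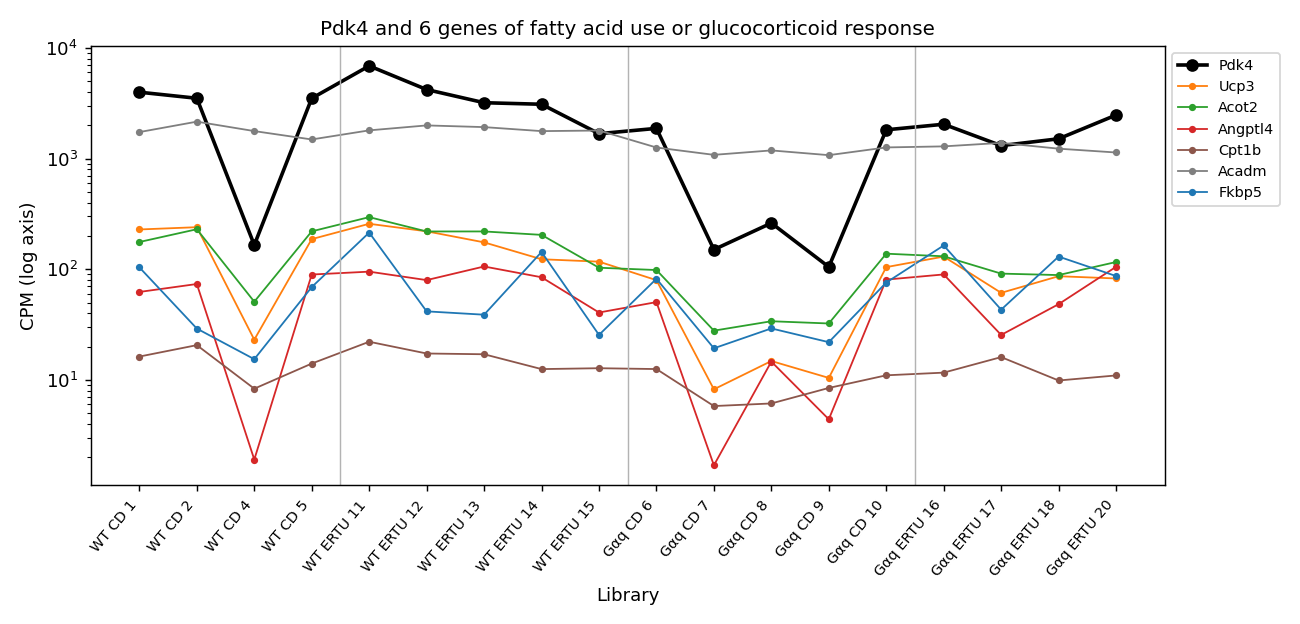
CPM (log axis) of Pdk4 and 6 genes in every library, ordered by group, with grey lines between groups. Ucp3, Acot2 and Angptl4 dip with Pdk4 in WT CD 4 and in Gαq CD 7, 8 and 9, whereas Acadm stays between 1073 and 2154 CPM.

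By genotype 8 of the 11 PPAR targets were called lower and 0 higher (median -0.59), among them Ucp3 (-1.47 ± 0.46 SE, adjusted p = 0.0268), Acot1 (-1.51), Acot2 (-1.16) and Hadha (-0.60). Over all genes 9.92% were called lower. On CD alone 4 of the 11 were called lower (Hadha, Fabp3, Slc25a20 and Acadm), against 4.10% of all genes. On ERTU alone 2 were (Hadha and Acadm), against 4.24%. Ucp3, Acot1 and Acot2 were called on neither diet alone. For ertugliflozin all 11 estimates were above 0 in WT and in Gαq, but 0 of 11 were called in edgeR in either. Their medians were 0.14 and 0.54, against 0.0052 and -0.0048 over all genes. These genes share libraries and varied with Pdk4 within groups, so their signs are not independent. Ucp3 in Gαq CD 6 and 10, at 79.7 and 104.5 CPM, was within the Gαq ERTU range of 61.2 to 130.1 CPM. Fat cell markers moved the same way: of 5 tested, 4 estimates were above 0 in WT (median 0.23) and 5 in Gαq (median 1.66), with 0 called. Their summed level ran from 29.4 to 52.2 CPM in WT CD, 29.4 to 65.3 in WT ERTU, 25.4 to 74.5 in Gαq CD and 51.1 to 143.8 in Gαq ERTU, and their part in the estimates was not tested. The 8 glucocorticoid-responsive genes correlated with Pdk4 within groups at 0.53 to 0.80 (median 0.71), and their 8 estimates for diet were all above 0 (median 0.65) with 0 called. These 8 genes share libraries as well, so their signs are not independent either. Of them Fkbp5, a co-chaperone of the glucocorticoid receptor, stood at 15.4 CPM in WT CD 4 and at 19.3, 29.2 and 21.9 CPM in Gαq CD 7, 8 and 9, and it was as low as 25.5 CPM in WT ERTU 15. For the 10 clock genes the correlations with Pdk4 ran from -0.50 to 0.65 (median 0.11), and 0 were called by genotype with diet in the model, although Per1 was called lower on CD. Gnaq stood at 9701, 8045 and 11670 CPM in Gαq CD 7, 8 and 9, against 6304 and 1641 CPM in Gαq CD 6 and 10. In WT CD 4 it stood at 208.9 CPM, the highest of that group. In WT ERTU 11, the library with the most Pdk4, it stood at 229.7 CPM, also the highest of its group. The part of Gnaq in the spread of Pdk4 was not tested. The hour of death and feeding state of each animal were not given in the sources used here, and their part in the spread of Pdk4 was not tested.

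The remaining genes varied along other lines. With group means removed, the pairs of the 10 genes most alike over 18 libraries were Pdha1 and Pdhb (r = 0.78) and Pdk1 and Pdha1 (r = 0.74), and the most opposed was Pdk2 and Pdk3 (r = -0.64). By the same measure over 13098 genes with a mean log2 CPM of at least 1, the patterns most like Pdk4 were those of Ucp3 (0.97), Gm17251 (0.96), Asb4 (0.95), Acot2 (0.95) and Angptl4 (0.94). Pdk2 was most like Pygm, the muscle glycogen phosphorylase (0.96), and Gm10110 (0.96). Pdk1 was most like Gabpa (0.92) and Tti1 (0.91), and Pdk3 most like Psat1 (0.90) and Anxa1 (0.89). Pdha1 was most like Ndufs1, a subunit of respiratory complex I (0.95), and Ktn1 (0.91). Pdhb was most like Cct8 (0.94) and its own pseudogene Gm6123 (0.90). Mpc2 was most like Gm15920 (0.95) and Mrpl13, a mitochondrial ribosomal protein (0.94), and Mpc1 most like Gm15270 (0.82) and Lamtor3 (0.82). Pdp1 was most like Pcgf5 (0.83) and Tbxa2r (0.83), and Pdp2 most like Ank (0.84) and Plekhm2 (0.84).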

How the data were processed

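RNA of 18 left ventricles was measured in 4 groups. The deposited counts are raw read pairs per Ensembl gene, which the authors made with STAR 2.6.0c on mm10 and featureCounts (Subread 1.6.2) from uniquely aligned proper pairs over nuclear-encoded genes. A second deposited table holds variance-stabilized values on a log2 scale, computed by the authors in DESeq2, which served as an alternative for the differences of mean log2 CPM between groups. Of the gene IDs, 99.5% matched GENCODE M21. Column numbers run over the whole series and gave groups only.

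Counts were filtered with filterByExpr on the 4 groups and fitted in edgeR 4.0.16 (R 4.3.3) with TMM scaling. Genotype and diet came from an additive model, and 5 further comparisons came from 1 mean per group. P-values of the quasi-likelihood test were adjusted by Benjamini-Hochberg over 16270 genes. CPM used TMM-scaled library sizes, log2 CPM a prior count of 2, and levels per length the union of exons. Near copies were found with blastn 2.17.0 (at least 90% identity over 240 bases). Depth was 15383566 to 20908363 counts per library, and the spread between libraries was measured directly, so no counting intervals were used.

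The named genes were the 10 members, genes of 9 hand-written lists and of cell type marker lists, Gnaq, and the genes most alike by correlation (5 for Pdk4, 2 for each other member). Members and lists were chosen with earlier results of these data known. From the PPAR target list 1 gene is not reported here and was left out of the counts. The settings varied were the scaling (median-of-ratios size factors), no filter, a mean CPM of at least 1, the Wald test of DESeq2 1.42.0, voom of limma 3.58.1 with quality weights, robust edgeR, 1 mean per group, only the groups compared, each library left out, and, added after seeing the data, near-copy counts added. On simulated data with 16270 genes, edgeR called 87% of genes changed 1.5-fold by genotype and 99% of those changed 2-fold. For Gαq on CD the shares were 59% and 92%, and for Gαq on ERTU 50% and 94%. The changed genes were drawn from those with a mean count over 50, and smaller changes or changes by diet were not simulated. Of the 10 members, those called by genotype other than Pdp2 changed by less than 1.5-fold (1.29 for Pdk1 to 1.48 for Mpc2). The shares therefore do not give the recovery of such changes.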

Additional observations from a re-analysis of the deposited data

Results flagged for a closer look

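Of 44 sets of values (the 10 genes and the total count in each group), 4 had 1 library far from the rest, where chance gives about 1 in 20, or 2.2 sets. The sets share libraries and are not independent, so 4 against 2.2 is no measure of an excess. Pdk4 was low in WT CD 4, at 165.5 CPM against 3500 to 3976 CPM in the other WT CD libraries, with a gap of 0.875 of the group's range. Pdhb was low in WT CD 5, at 447.3 CPM against 590.1 to 607.2 CPM (gap 0.893). Pdk3 was high in WT ERTU 14, at 3.15 CPM against 2.06 to 2.28 CPM (gap 0.80), on 60 counts. The total count was low in WT ERTU 15, at 16075634 against 18036131 to 18834963 (gap 0.711).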

How the results depend on the processing

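The count of the 10 genes called by genotype with diet in the model was 6 or 7 under all alternatives and all 18 fits that left out 1 library, and 0 were called for diet, ERTU in WT, ERTU in Gαq or the interaction in any of them. For Gαq on CD it was 3 with no filter on low counts and 2 with only the groups compared, and 3 to 6 when 1 library was left out (3 without WT CD 2). For Gαq on ERTU it was 4 to 6 when 1 library was left out. Over all genes, leaving out 1 library gave between 2812 and 3458 calls by genotype and 0 in each of diet, ERTU in WT, ERTU in Gαq and the interaction. Calls for Gαq on CD ranged from 788 (without WT CD 1; 851 without WT CD 2) up to 1414, and calls for Gαq on ERTU from 946 up to 1696. For diet DESeq2 gave 2 calls. For ERTU in Gαq the 1 call became 0 with no filter, with robust edgeR and with only the 2 groups compared, and 4 with DESeq2. For Gαq on ERTU voom gave 2755 calls against 1330. The causes were not tested. Of the calls on single diets, Pdp2 and Mpc2 held under every setting tried, while Pdhb on CD was lost in the fit of only the groups compared (adjusted p = 0.0629), Pdha1 on CD there and with no filter (0.115 and 0.116), Pdk1 on CD there and with no filter (0.0501 and 0.0535), Pdk2 on CD there, with no filter and with median-of-ratios scaling (0.0943, 0.0598 and 0.0522), and Pdk1 on ERTU with no filter, robust edgeR and only the groups compared (0.105, 0.0504 and 0.074). Pdk2 on ERTU was called by DESeq2 (0.0432) and voom (0.0072). Differences of mean log2 CPM on single diets or genotypes moved by less than 1 SD with the deposited variance-stabilized values. No gene among the 10 had a called difference that changed sign under any setting. The difference of Mpc1 for Gαq on ERTU, which was not called, was -0.21 with near-copy counts added and ran from -0.09 to 0.14 when 1 library was left out. No paired analysis was possible because the column numbers run over the whole series and could not be tied to the replicate numbers of the labels. Depth limited Pdk3, at 31 to 76 counts per library.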
